A study of Mus musculus with 6 samples.

Results

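The pyruvate dehydrogenase complex, its kinases and its phosphatases were represented by 10 genes, chosen by name and matched on the gene symbol among the 54532 genes of the count table: the kinases Pdk1, Pdk2, Pdk3 and Pdk4, the phosphatases Pdp1 and Pdp2, and the complex subunits Pdha1, Pdhb, Pdhx and Dlat. They were measured by RNA-seq in BV2 cells, a cell line of mouse microglia, in 3 libraries with the genotype SMEK1 knockdown and 3 labelled WT. SMEK1 is a regulatory subunit of protein phosphatase 4 and its gene is listed as Ppp4r3a. Both groups grew in DMEM with fetal bovine serum and antibiotics, and no stimulus is labelled. The design text counts both lines, which it calls LV1 and NL, as knockdown derivatives of BV2, whereas the genotype labels call the NL libraries WT, and the groups here follow the genotype labels. The sources used here name neither the construct, nor a control construct, nor whether a line is 1 clone, nor whether the 3 libraries of a group are separate cultures. P-values therefore measure the spread between these libraries, and other differences between the cell populations cannot be told apart from the knockdown.

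The pyruvate dehydrogenase complex turns pyruvate, the end product of glycolysis, into acetyl-CoA in the mitochondrial matrix, and so sets how much glucose carbon is oxidised and how much leaves as lactate. Pyruvate dehydrogenase kinases phosphorylate the alpha subunit of the complex and switch it off, and the phosphatases remove these phosphates and switch it on again. The kinases are encoded by separate genes with their own tissue distributions: Pdk2 is broadly expressed, Pdk4 is induced in fasting, Pdk1 is a classical hypoxia-induced gene, and Pdk3 is best known from testis, kidney and brain. In activated myeloid cells, including microglia, the balance between glycolysis and pyruvate oxidation shifts, which is why these switches are studied there.

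Of the 10 genes, 8 had counts and the same 8 had enough to be tested, while Pdk2 and Pdk4 had 0 counts in all 6 libraries. Pdk3 had counts in the knockdown and none in WT, Pdk1 was lower in the knockdown, and the other 6 tested genes were not called. A gene is called when its adjusted p, over all 12269 genes tested, is under 0.05, and 20.5% of those genes were called higher in the knockdown, 19.6% lower and 40.1% either way. The bases upstream of the 4 kinase genes are shown because both calls fell on kinase genes, of which 1 had counts in both groups, 1 in the knockdown alone and 2 in neither. The sequences are from RefSeq (GRCm38.p6), run 5′ to 3′ on the strand of the gene, and end before both the RefSeq start site and the first base of the deposited gene. Capitals mark CG dinucleotides. The stretch of Pdk1 lies at chr2:71872974-71873223 on the plus strand, and the other 3 are on the minus strand, Pdk2 at chr11:95041372-95041621, Pdk3 at chrX:93832202-93832400 and Pdk4 at chr6:5496310-5496528.
Pdk1: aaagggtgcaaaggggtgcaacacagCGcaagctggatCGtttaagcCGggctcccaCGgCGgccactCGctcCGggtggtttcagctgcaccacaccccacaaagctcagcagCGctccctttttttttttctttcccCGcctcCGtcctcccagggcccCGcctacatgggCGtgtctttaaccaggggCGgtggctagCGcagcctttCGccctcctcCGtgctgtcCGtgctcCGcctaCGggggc
Pdk2: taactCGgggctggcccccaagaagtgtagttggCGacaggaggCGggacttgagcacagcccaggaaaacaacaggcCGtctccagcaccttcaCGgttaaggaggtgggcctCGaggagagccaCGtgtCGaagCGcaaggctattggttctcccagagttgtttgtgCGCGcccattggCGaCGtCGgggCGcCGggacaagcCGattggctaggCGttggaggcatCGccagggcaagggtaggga
Pdk3: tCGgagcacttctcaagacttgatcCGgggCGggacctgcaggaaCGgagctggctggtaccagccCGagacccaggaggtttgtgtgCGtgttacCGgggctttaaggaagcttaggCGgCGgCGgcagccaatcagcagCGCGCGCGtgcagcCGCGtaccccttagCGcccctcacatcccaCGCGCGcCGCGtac
Pdk4: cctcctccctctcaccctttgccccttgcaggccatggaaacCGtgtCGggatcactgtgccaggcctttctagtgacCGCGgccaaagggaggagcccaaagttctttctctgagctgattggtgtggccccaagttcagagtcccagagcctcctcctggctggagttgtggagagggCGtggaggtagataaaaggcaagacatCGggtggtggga

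In the window of 300 bases around each start site, which reaches 50 bases past it, Pdk3 held 35 CG dinucleotides, Pdk1 and Pdk2 held 25 each, and Pdk4 held 12. Over 32851 RefSeq promoter windows of the same length the median was 7, and 93.8% of the windows had no more than Pdk3. The expressed Pdk1 and the undetected Pdk2 thus had the same number. The core of the hypoxia response element, ACGTG on either strand, matched once in the Pdk3 window and 2 times in that of Pdk2, where the same 6 bases were read on both strands. It had no match in the windows of Pdk1 and Pdk4, and 19.6% of all windows held it. The Pdk3 match was not within the stretch printed above, whereas those of Pdk2 were within theirs. The forkhead core GTAAACA, on either strand, had no match in the 4 windows and was in 3.65% of all windows. A match describes letters only, and no binding was measured here.

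Pdk3 had 112, 155 and 111 counts in knockdown libraries A to C, and 0 counts in each of WT libraries A to C. These counts correspond to 5.85, 6.89 and 5.01 CPM (counts scaled to library size by TMM) in the knockdown. Every knockdown library was above every WT library, and the knockdown libraries lay within 1.5-fold of each other. The 378 knockdown counts against a floor of 3 counts over the WT group made Pdk3 at least 103-fold higher. The edgeR quasi-likelihood test gave an adjusted p of 1.78e-06 and did not estimate this fold. This fold takes the knockdown counts as measured, without their counting error. The 378 counts have an exact 95% counting interval of 341 to 418, which covers counting error only. In all 17 other ways of processing the counts or FPKM values it was called higher, with adjusted p of at most 5.07e-04. In bulk RNA, more cells that use Pdk3 and more Pdk3 RNA per cell cannot be told apart. Pdk3 passed the filter on low counts through the knockdown libraries alone, so that as a tested gene it had to differ. Its adjusted p and the 17 other ways of processing therefore add no support beyond the counts themselves.

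Pdk3, ENSMUSG00000035232, lies on the minus strand of the X chromosome, chrX:93764607-93832201 in GRCm38, and its longest annotated transcript has 12 exons. Of 2508 distinct stretches of 50 bases in its GENCODE M21 transcripts, 0 occurred in a transcript of another gene. The same held for Pdk1 (0 of 8073) and Pdk2 (0 of 3179). No other gene of the table overlaps Pdk3.

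Pdk1, the kinase gene of the WT cells, fell in the knockdown. It had 75.2, 76.3 and 76.3 CPM in WT libraries A to C and 57.5, 63.3 and 60.8 CPM in knockdown libraries A to C. The groups did not overlap, and the highest knockdown library was below the lowest WT library. The log2 fold change, knockdown over WT, was -0.33 (SE 0.08, 95% interval -0.49 to -0.16, edgeR quasi-likelihood test, adjusted p = 0.00544). The call was lost when libraries were scaled by their totals (log2 fold change -0.17, adjusted p = 0.103), and it held without each single library. Pdk1, ENSMUSG00000006494, lies at chr2:71873224-71903858 on the plus strand.

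Pdk2 and Pdk4 were listed at 0 counts in every library. Over a group, a count of 0 allows up to 3 counts, which is 0.0470 CPM over the knockdown libraries and 0.0574 CPM over the WT libraries, so neither was detectable at this depth. Pdk2 lies at chr11:95026258-95041354 and Pdk4 at chr6:5483351-5496309, both on the minus strand. Gm11513, an antisense gene inside Pdk2, also had 0 counts.

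**Figure D1:**
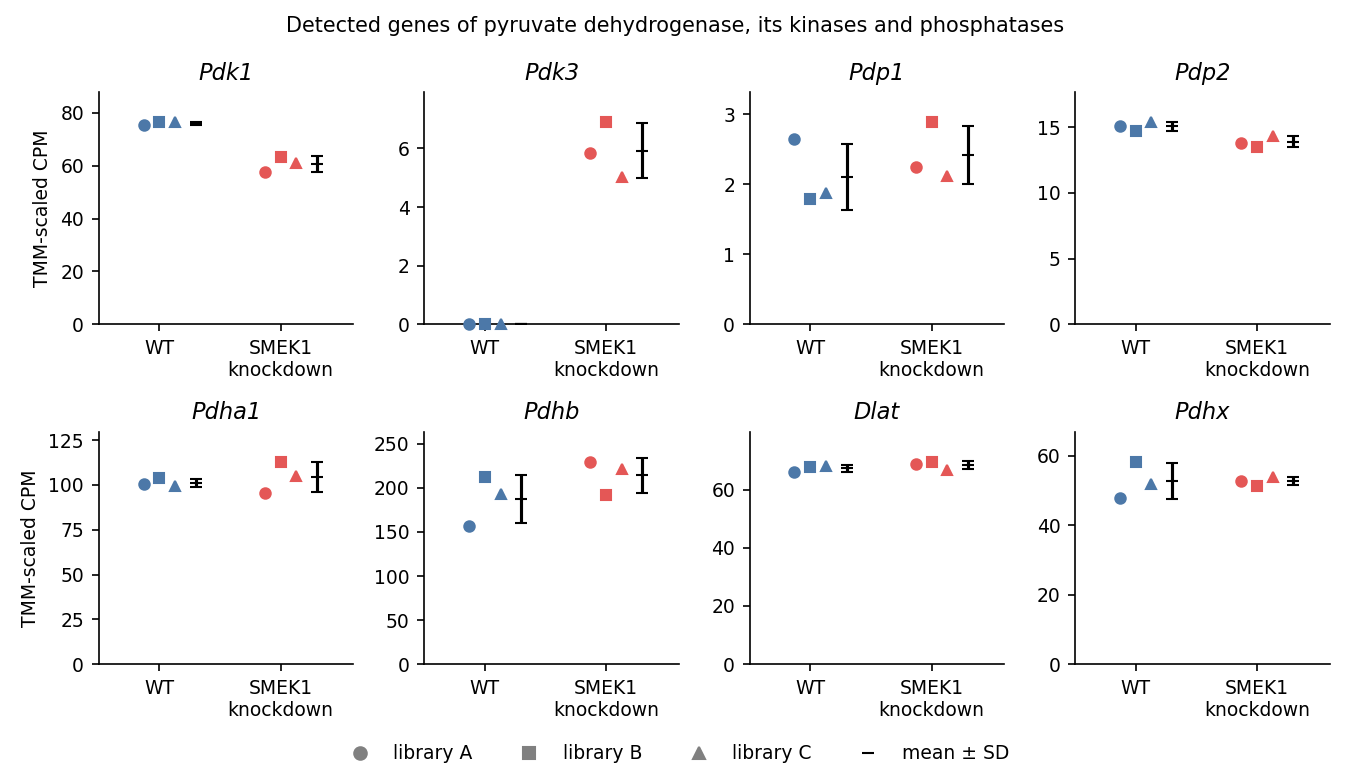
TMM-scaled CPM (y axis, from 0 in each panel) of the 8 detected genes in the 3 WT and 3 SMEK1 knockdown libraries (points, with the shape giving the library letter; bars, mean ± SD). Pdk3 is at 0 in WT and at 5.01 to 6.89 in the knockdown, Pdk1 and Pdp2 have all knockdown points below all WT points, and the groups overlap in the other 5 panels.

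Set side by side per gene length, the kinase transcripts were divided differently in the 2 groups. In FPKM, a level per gene length, as the authors deposited them, Pdk1 was at 9.66, 9.77 and 9.76 in WT libraries A to C and Pdk3 was listed at 0. In knockdown libraries A to C, Pdk1 was at 7.42, 7.93 and 7.75 FPKM and Pdk3 at 2.30, 2.62 and 1.94 FPKM. Pdk3 thus made up 23.6%, 24.8% and 20.03% of the summed kinase FPKM in the knockdown, a mean of 22.8% ± 2.50 (SD, n = 3). This share is the same on any scaling between libraries, since both genes are read from 1 library.

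The summed FPKM of Pdk1 to Pdk4 was 9.99 ± 0.485 in the knockdown and 9.73 ± 0.0621 in WT (SD, n = 3), a ratio of 1.03. Knockdown A (9.72) and C (9.69) lay within the WT range of 9.66 to 9.77, and knockdown B (10.5) lay above it. The sum depends on the scaling: in CPM by library totals per kilobase it was 10.7 ± 1.02 in the knockdown and 9.23 ± 0.338 in WT (SD, n = 3), a ratio of 1.16, with every knockdown library above every WT library. Relative to Pdha1, the substrate subunit, which needs no scaling, the sum was 0.378, 0.359 and 0.348 in knockdown libraries A to C and 0.360, 0.353 and 0.369 in WT libraries A to C. Those groups overlapped. Pdk1 alone relative to Pdha1 was 0.270 to 0.288 in the knockdown and 0.353 to 0.369 in WT, without overlap. These sums and ratios are descriptions of chosen genes and were not tested.

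**Figure D2:**
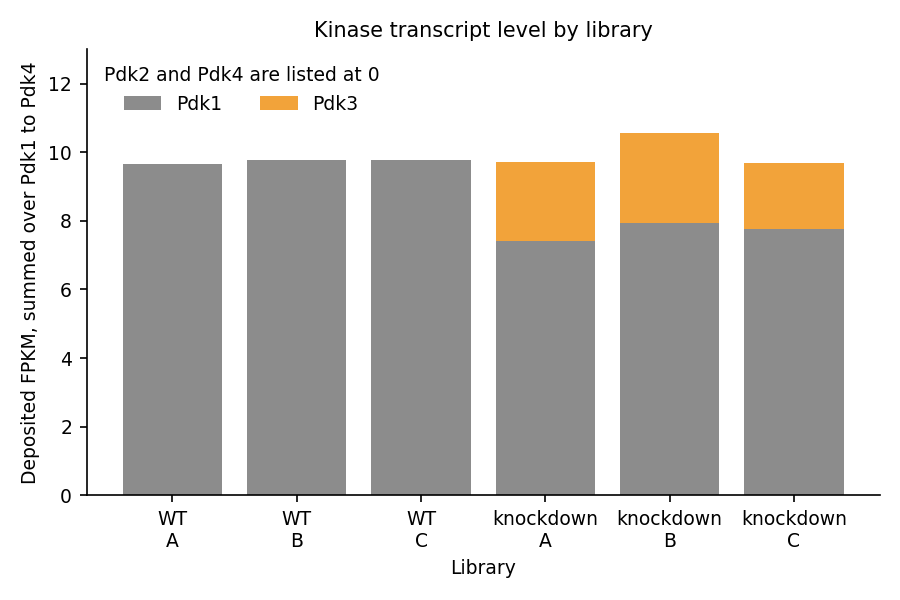
Deposited FPKM of Pdk1 (grey) and Pdk3 (orange), stacked, for each library (x axis); Pdk2 and Pdk4 are listed at 0 in all of them. The WT bars are Pdk1 alone at 9.66 to 9.77, and the knockdown bars reach 9.69 to 10.5 with Pdk3 as 20.03% to 24.8% of the height.

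Phosphatase genes were not called. Pdp2 had 15.1, 14.7 and 15.4 CPM in WT libraries A to C and 13.8, 13.5 and 14.3 CPM in knockdown libraries A to C. Its groups did not overlap, but the log2 fold change of -0.12 (95% interval -0.39 to 0.16, edgeR quasi-likelihood test, adjusted p = 0.483) did not pass the test, and its sign turned with library totals (0.04). Pdp1 had 30 to 49 counts in the WT libraries and 43 to 65 in the knockdown libraries, or 2.11 ± 0.469 and 2.42 ± 0.410 CPM (SD, n = 3). The groups overlapped (log2 fold change 0.20, 95% interval -0.38 to 0.77, adjusted p = 0.582 by the same test). Per gene length Pdp2 was the main phosphatase transcript, with 78.7% to 84.2% of the summed phosphatase FPKM in the knockdown and 81.9% to 86.7% in WT. Kinase over phosphatase, as summed FPKM, was 3.31, 3.59 and 3.27 in knockdown libraries A to C and 2.98, 3.30 and 3.15 in WT libraries A to C, which overlap. Without Pdk3 the ratio in the knockdown was 2.53 to 2.70, below all WT libraries.

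No subunit gene of the complex was called. Pdha1, the alpha subunit that the kinases phosphorylate, had 95.7, 113 and 105 CPM in knockdown libraries A to C and 100.3, 104 and 99.1 CPM in WT libraries A to C. These ranges overlap, with the lowest and the highest value both in the knockdown (log2 fold change 0.05, 95% interval -0.13 to 0.22, edgeR quasi-likelihood test, adjusted p = 0.665). Dlat, the acetyltransferase core, had 66.8 to 69.5 CPM in knockdown libraries and 66.01 to 68.2 CPM in WT (log2 fold change 0.02, 95% interval -0.14 to 0.18, adjusted p = 0.827 by the same test). With library totals Dlat was called higher (log2 fold change 0.18, adjusted p = 0.0494). Pdhx, which anchors the dihydrolipoamide dehydrogenase to that core, had 51.3 to 53.7 CPM in knockdown libraries and 47.9 to 58.1 CPM in WT (log2 fold change 0.00, 95% interval -0.20 to 0.20, adjusted p = 0.991). The intervals of Pdha1, Dlat and Pdhx reach from -0.20 to 0.22 on the log2 scale.

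Pdhb, the beta subunit, had 229, 192 and 222 CPM in knockdown libraries A to C and 157, 212 and 193 CPM in WT libraries A to C. Knockdown B lay below WT B and WT C, so the groups overlapped. Its log2 fold change was 0.19 (95% interval -0.05 to 0.44, edgeR quasi-likelihood test, adjusted p = 0.184). It was called higher without knockdown B (adjusted p = 0.0388), with library totals (0.00704) and with the filter of 1 count in any library (0.0315). Without WT A, its lowest library, the log2 fold change was 0.08 (adjusted p = 0.557). Pdhb was lowest within its group in knockdown B and in WT A. In the same 2 libraries Dld, the dihydrolipoamide dehydrogenase of the complex, was highest within its group, with 83.5 CPM in knockdown B and 76.3 CPM in WT A against 49.3 to 63.6 CPM in the other 4. The pattern was not limited to these genes: Hif1a, at 20.1 CPM in knockdown B and 22.1 CPM in WT A, was also highest there. Over all genes tested, the deviations of these 2 libraries from their group means correlated at 0.489. The part of this pattern in the Pdhb result was not tested. Of the distinct stretches of 50 bases in Pdhb transcripts, read on either strand, 11.4% also occur in transcripts of other genes, and of those of Pdha1 12.9% do. The Pdha1 stretches occur only in Map3k15 and 4930519F09Rik, so the 12.9% may include the overlap given next. Map3k15, on the other strand, overlaps Pdha1 by 1143 bases, and strand use in the counting is not stated, so the counts of Pdha1 and Pdhb are less certain than those of Pdk1 and Pdk3.

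Ranked by deposited FPKM in the knockdown, the order was Pdhb (55.0 ± 5.84), Pdha1 (27.7 ± 1.83), Dlat (13.9 ± 0.302), Pdhx (13.3 ± 0.466), Pdk1 (7.70 ± 0.255), Pdp2 (2.41 ± 0.0936), Pdk3 (2.29 ± 0.339) and Pdp1 (0.531 ± 0.0826; all SD, n = 3). In WT the order of the other 7 was the same. Dlat and Pdhx did not differ beyond their spread in WT, where their libraries ranged over 13.5 to 13.9 and 12.2 to 14.7 FPKM, and in the knockdown their ranges met at 13.5 to 13.6. Pdp2 and Pdk3 overlapped in the knockdown, at 2.31 to 2.49 and 1.94 to 2.62 FPKM. The other neighbours in the order were apart in every library. Pdhb was at 1.65 to 2.32 times the FPKM of Pdha1 in the knockdown and 1.52 to 1.98 times in WT.

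Across all 12269 genes tested, 2515 (20.5%) were called higher and 2403 (19.6%) lower in the knockdown, or 3893 and 1568 when scaled by library totals. Of the 8 tested genes of the complex, its kinases and phosphatases, 1 was called higher (Pdk3), 1 lower (Pdk1) and 6 neither. Pdk3, with 0 counts in WT, had to differ once it was tested. The libraries did not overlap, knockdown above, for 26.7% of tested genes and for 1 of the 8, and knockdown below for 24.3% of tested genes and for 2 of the 8. Their median log2 fold change was 0.04 against 0.01 over all genes tested. Called either way were 2 of the 8, against 40.1% of all genes tested. The count of higher genes was 2 without knockdown B, when Pdhb joined Pdk3.

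Genes with a pattern like that of Pdk3, 0 counts in every WT library and at least 20 in each knockdown library, numbered 6 including Pdk3, or 0.0489% of the genes tested. The opposite pattern, 0 in every knockdown library and at least 20 in each WT library, was found for 0 genes. Of the 6, Pdk3 had the most counts. Sept3, a septin gene, had 61, 65 and 77 counts in knockdown libraries A to C. Vangl1, a planar polarity gene, had 29, 58 and 47, and Syt14, a synaptotagmin gene, had 38 in each. Cacna2d1, which encodes a calcium channel subunit, had 35, 39 and 38 counts, and the antisense gene Gm44026 had 22, 22 and 24. They lie on chromosomes 15, 3, 1, 5 and 6, so none of the other 5 is on the X chromosome with Pdk3.

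Around Pdk3, the nearest gene with counts showed the same direction at a far lower level. Pcyt1b, which encodes an enzyme of phosphatidylcholine synthesis and ends 14.7 kb from the end of Pdk3 on the opposite strand, had 4, 7 and 4 counts in knockdown libraries A to C and 0 in each WT library. It had too few counts to be tested, and its 15 knockdown counts have an exact 95% counting interval of 8.40 to 24.7. Within 1 Mb on either side 16 genes including Pdk3 had a count. Of the 8 others that were tested 2 were called higher, 1 lower and 5 neither. Apoo, which encodes a mitochondrial membrane protein and starts 535 kb from Pdk3, rose by 0.62 in log2 (SE 0.17, edgeR quasi-likelihood test, adjusted p = 0.0137; 0.0591 without knockdown C). Eif2s3x, a translation initiation factor gene, rose by 0.40 (SE 0.12, adjusted p = 0.0179 by the same test; 0.0569 without WT B and 0.0610 without WT C). Pola1, a DNA polymerase subunit gene, fell by 0.73 in log2 (SE 0.22, adjusted p = 0.0184 by the same test; 0.0773 without knockdown C, 0.0796 without WT A and 0.0511 without WT C). Over the X chromosome, 17.4% of 363 tested genes were called higher and 17.6% lower.

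**Figure D3:**
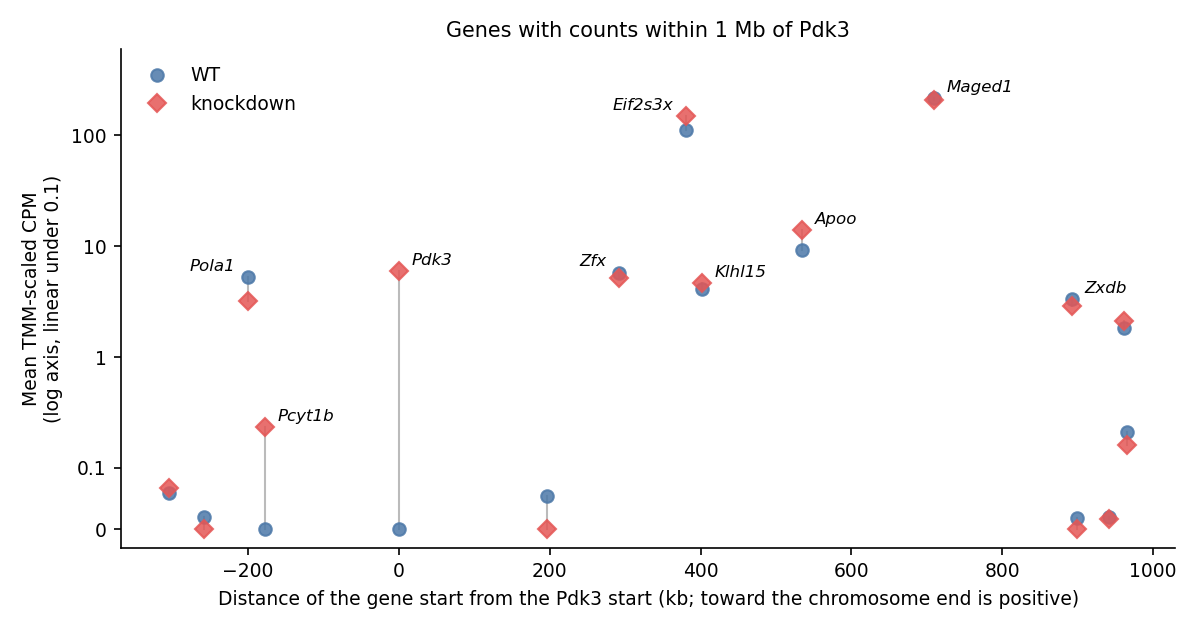
Mean TMM-scaled CPM (y axis, logarithmic and linear under 0.1) of the 16 genes with a count within 1 Mb of Pdk3 in WT (circles) and SMEK1 knockdown (diamonds), against the distance of each gene's start from that of Pdk3 in kb. Pdk3 and Pcyt1b are at 0 in WT and at 5.92 and 0.234 CPM in the knockdown, and the 8 other tested genes are above 0 in both groups.

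Of the other genes that complete the complex or carry pyruvate to it, 0 of 4 tested were called, against 40.1% of all genes tested. Dld had a log2 fold change of -0.02 (95% interval -0.38 to 0.35, edgeR quasi-likelihood test, adjusted p = 0.949), and Pdpr, the regulatory subunit of the phosphatase, 0.21 (95% interval -0.23 to 0.66, adjusted p = 0.432). Pdha2, the testis form of the alpha subunit, had 0 counts in every library. Mpc1 and Mpc2, which form the mitochondrial pyruvate carrier, had 0.21 (95% interval -0.15 to 0.57, adjusted p = 0.342) and 0.14 (95% interval -0.09 to 0.37, adjusted p = 0.313). Of the 3 tested genes of thiamine supply, the cofactor of the complex, 0 were called.

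Among 9 genes that make or attach lipoic acid, the swinging arm of the complex, or build the iron-sulphur clusters needed for it, 2 rose, 1 fell and 6 were not called, with a median log2 fold change of -0.07. Over all genes tested, 20.5% were called higher and 19.6% lower. Nfu1, an iron-sulphur carrier that serves lipoate synthase, had 72.7 ± 11.1 CPM in WT and 102 ± 7.76 CPM in the knockdown (SD, n = 3) and rose by 0.48 in log2 (SE 0.11, edgeR quasi-likelihood test, adjusted p = 0.00447). Bola3, its partner, rose by 0.40 (SE 0.12, adjusted p = 0.0162 by the same test; 0.0509 without WT A and 0.0638 without WT C). Glrx5, a glutaredoxin earlier in that route, fell by 0.23 in log2 (SE 0.08, adjusted p = 0.0297 by the same test), a call that did not hold without knockdown B (0.0900), knockdown C (0.0998), WT B (0.108) or WT C (0.0790), or with library totals (0.276).

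**Figure D4:**
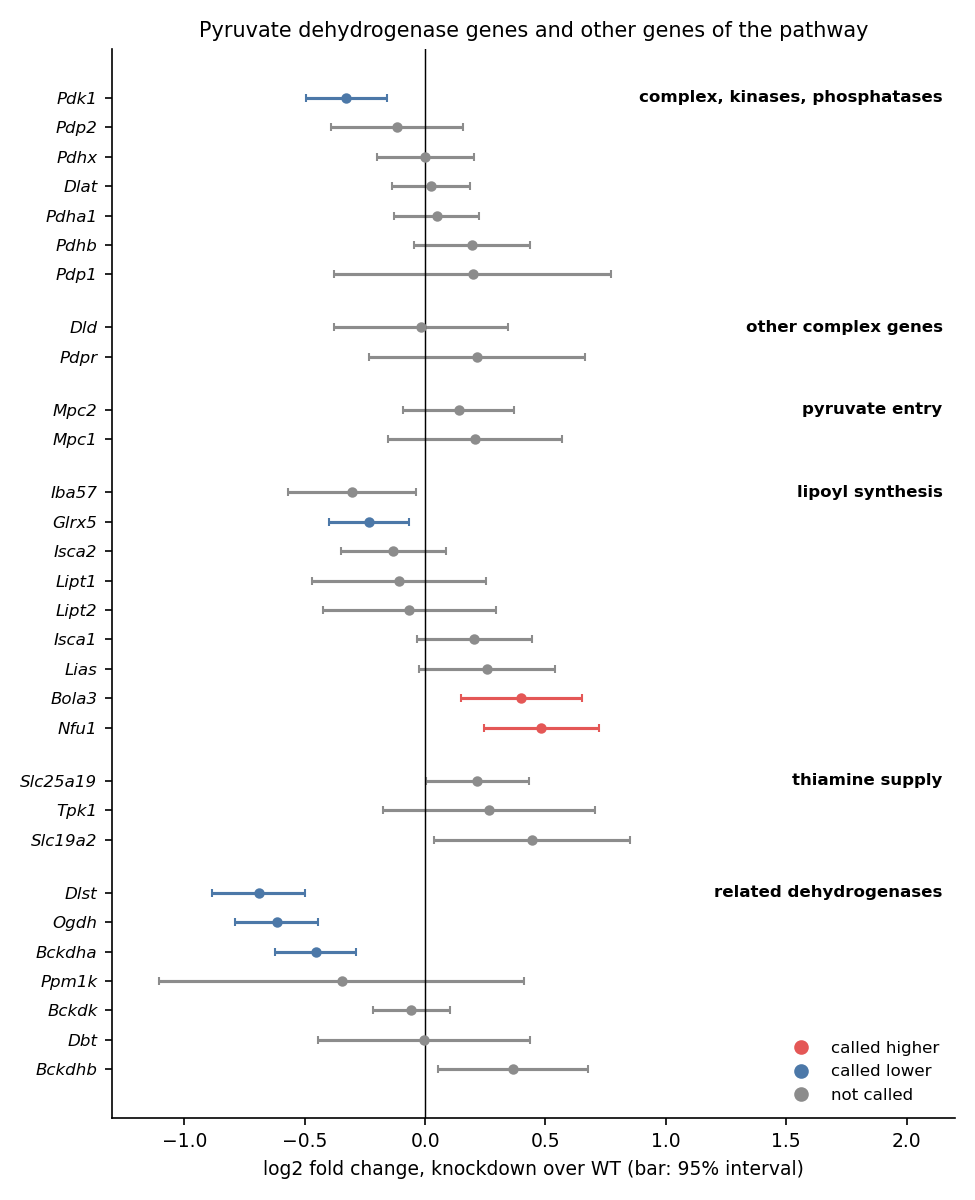
Log2 fold change of knockdown over WT (x axis; points, with bars for the 95% interval) for tested genes of the complex, its kinases and phosphatases and of 5 other lists of the pathway, coloured by the call. Pdk3 and Ogdhl are left out, since Pdk3 has 0 counts in WT and Ogdhl, at 4.10, lies past the axis. Of the first list only Pdk1 has an interval that leaves out 0, and Pdk1 (-0.33), Dlst (-0.69), Ogdh (-0.62) and Bckdha (-0.45) lie below it.

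The oxoglutarate and branched-chain dehydrogenase complexes are built on the same plan as the pyruvate dehydrogenase complex. Of 8 tested genes of these related complexes and their regulators 1 rose, 3 fell and 4 were not called, with a median log2 fold change of -0.20. The shares over all genes tested were 20.5% higher and 19.6% lower. Ogdhl, a relative of the oxoglutarate dehydrogenase gene Ogdh, had 24, 6 and 8 counts in WT libraries A to C and 269, 272 and 249 in knockdown libraries A to C. It rose by 4.10 in log2 (SE 0.33, edgeR quasi-likelihood test, adjusted p = 3.03e-06), and by 4.88 without WT A, which held the most WT counts. Ogdh fell by 0.62 in log2 (SE 0.08, adjusted p = 1.01e-04 by the same test). Dlst, the core of the oxoglutarate complex, fell by 0.69 in log2 (SE 0.09, adjusted p = 9.86e-05 by the same test), and Bckdha, the alpha subunit of the branched-chain complex, fell by 0.45 (SE 0.08, adjusted p = 6.91e-04 by the same test). Bckdk, the kinase of the branched-chain complex and a relative of the Pdk genes, had -0.06 (95% interval -0.22 to 0.10, adjusted p = 0.570).

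Pyruvate and its products have other routes, and 10 of their 13 listed genes were tested: 2 rose, 5 fell and 3 were not called, with a median log2 fold change of -0.24. Among all genes tested, 20.5% were called higher and 19.6% lower. The lactate exporter gene Slc16a3 fell by 0.81 in log2 (SE 0.08, edgeR quasi-likelihood test, adjusted p = 9.25e-06). Citrate synthase, Cs, which uses the acetyl-CoA made by the complex, fell by 0.46 (SE 0.08, adjusted p = 5.83e-04), and pyruvate carboxylase, Pcx, fell by 0.51 (SE 0.09, adjusted p = 0.00122), both on the log2 scale and by the same test. Pck2, the mitochondrial phosphoenolpyruvate carboxykinase gene, fell by 0.39 in log2 (SE 0.07, adjusted p = 0.00151 by the same test).

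Of 16 tested regulators known to act on Pdk genes or on the hypoxia pathway 6 rose, 4 fell and 6 were not called, with a median log2 fold change of -0.08. For all genes tested the shares were 20.5% higher and 19.6% lower. Hif1a, the hypoxia-inducible factor that drives Pdk1 and Pdk3 in hypoxia, had 15.9 ± 4.24 CPM in knockdown libraries and 17.0 ± 4.66 CPM in WT (SD, n = 3; log2 fold change -0.09, 95% interval -0.57 to 0.39, edgeR quasi-likelihood test, adjusted p = 0.762). Its relative Epas1 rose by 0.68 (SE 0.08, adjusted p = 5.13e-05 by the same test), and Vhl, which targets both factors for degradation, rose by 0.77 (SE 0.13, adjusted p = 5.98e-04 by the same test). Egln3, an oxygen-dependent hydroxylase gene of the pathway, had 134, 128 and 130 counts in WT libraries A to C and 47, 20 and 43 in knockdown libraries A to C, and fell by 2.10 in log2 (SE 0.29, adjusted p = 1.78e-04 by the same test). Sirt3, a mitochondrial deacetylase that acts on the complex, rose by 0.65 (SE 0.12, adjusted p = 9.52e-04 by the same test). Ppara and Ppargc1a, activators of Pdk4 in other tissues, had 0 counts in every library.

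The target of the knockdown, Ppp4r3a, had 48, 122 and 94 counts in knockdown libraries A to C and 335, 227 and 260 in WT libraries A to C, which left 25.9% of the WT mean. Library totals were 18036591 to 21131557 counts, so that 1 count stood for 0.0444 to 0.0597 CPM. Of the 12 microglia markers 10 were tested, 2 called higher and 5 lower, against 20.5% and 19.6% of all genes tested. Higher were Tmem119 (log2 fold change 1.00) and Trem2 (0.36). Lower were Csf1r (-0.73), Itgam (-0.47), Cd68 (-0.37), Spi1 (-0.30) and Tyrobp (-0.26). The list summed to 3779 to 4231 CPM in knockdown libraries and 4275 to 4797 CPM in WT. Cx3cr1 had 1 to 11 counts and P2ry12 0 to 2 in each, while Cd68, Tyrobp and Trem2 had group means of 754 to 1104 CPM. Of 8 neuron markers 5 were at 0 in every library, among them Snap25, Syt1 and Map2, and the list summed to 0.889 to 1.81 CPM in knockdown libraries and 0.716 to 1.08 CPM in WT. The 1 neuron marker with enough counts to be tested, Tubb3, a tubulin gene, had 19, 18 and 39 counts in knockdown libraries A to C and 12, 7 and 9 in WT libraries A to C, and was called higher (log2 fold change 1.14, SE 0.41, edgeR quasi-likelihood test, adjusted p = 0.0449). Of 7 germ cell markers 4 were at 0, and the list summed to at most 0.378 CPM in any library. The 6 oligodendrocyte markers, with Mog and Olig2 at 0, summed to 7.15 to 7.41 CPM in knockdown libraries and 2.53 to 2.81 CPM in WT, nearly all of it Mbp, the 1 tested, which was called higher (log2 fold change 1.504, adjusted p = 8.68e-05). Astrocyte markers summed to 158 to 189 CPM in knockdown libraries and 194 to 221 CPM in WT, nearly all of it Aldoc, the 1 tested, which was called lower (log2 fold change -0.32, adjusted p = 0.0169). Endothelial markers summed to at most 0.648 CPM. The part of these marker differences in the Pdk3 and Pdk1 results was not tested.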

How the data were processed

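Per the labels' protocols, libraries were made with a SMARTER mRNA kit from 1.3 µg of total RNA. The build was GRCm38 (mm10), per the submitters' processing notes. The aligner, the counting program and strand use were not stated in the labels. The authors deposited whole-number counts per gene and FPKM values for 6 libraries. Lengths and positions of all 10 genes equal GENCODE M21. Set against the counts and lengths, the deposited FPKM imply a scaling total of 1.02 to 1.12 times the count total in knockdown libraries. In WT libraries it was 0.911 to 0.991 times. TMM likewise scaled every knockdown library above its count total and every WT library below it. Results on FPKM are thus no separate check on TMM.

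Counts were tested with edgeR 4.0.16 (R 4.3.3): filterByExpr (12269 genes), TMM, glmQLFit and glmQLFTest without covariates, two-sided, Benjamini-Hochberg adjusted over all genes tested, called at an adjusted p under 0.05. SE is the log2 fold change over the square root of F. It is approximate, and intervals are 95%. Alternatives used limma 3.58.1 and DESeq2 1.42.0. Members, lists and rules were chosen with earlier results of these data known. Genes were named by rule: the members, up to 4 called genes with the smallest adjusted p per list, genes patterned like Pdk3, its neighbours, and Ppp4r3a. Hif1a, Dld, Pdpr, Mpc1, Mpc2, Bckdk, single cell type markers and genes at 0 were named after their values were seen. The test was run on simulated counts with folds of 1.5, 2 and 4, of which it recovered 70.1%, 94% and 98.5%. Of its 184 calls 9 were false. The simulation held no change as small as that of Pdk1 and did not address the choice between TMM and library totals. It changed far fewer genes than the 40.1% called here, none with few counts, and gave every gene the same dispersion. Its rates therefore do not carry over to these data.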

Additional observations from a re-analysis of the deposited data

How the results depend on the processing

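Pdk3 was called higher in all 17 alternatives (other scalings, filters and tools, FPKM, a replicate block, each library left out), and Pdk1 lower in 16. The Pdk3 calls add no support, since with 0 counts in WT it had to differ once tested. Library totals in place of TMM moved the median log2 fold change of all genes from 0.01 to 0.17, and with them 3 of the 8 genes were called higher (Pdk3, Pdhb and Dlat) and 0 lower (Pdk1 -0.17), against 1 and 1; over all genes 3893 were higher and 1568 lower, against 2515 and 2403. With a filter of 1 count in any library 2 of the 8 were higher. Leaving out 1 library gave 1 to 2 higher and 1 lower of the 8. Among uncalled genes, signs turned for Pdhx (-0.00706 with DESeq2 size factors, -0.00702 with DESeq2, -0.00448, -0.00455 and -0.00448 on FPKM, -0.0652 to 0.0762 without single libraries, with -0.00592 and -0.0127 between), Pdp2 (0.0400 with library totals), Dld (0.0128 with upper quartile, 0.144 with library totals, 0.0173 with 1 count in any library, -0.221 to 0.148 without single libraries, with 0.0214 and 0.105 between) and Hif1a (0.0618 with library totals, -0.275 to 0.141 without single libraries, with 0.0895 between). The cause was not tested.

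The Pdk3 share of kinase level was 8.89% in raw counts, which ignore that Pdk3 is the shorter gene, against 22.8% per length, and 21.8% to 24.2% without 1 library. The scalings of the kinase sum were chosen after seeing the data (ratio 1.03 in CPM per kb with TMM, 1.16 with library totals). With the replicate block, Pdk1 kept its call (adjusted p = 0.0337), 1678 genes were higher and 1648 lower, and Bola3, Glrx5, Pola1 and Eif2s3x lost theirs (0.0576, 0.1304, 0.0685 and 0.0697). Same-lettered libraries did not deviate together (correlations of -0.435, -0.411 and -0.00375), and no library correlated best with its own letter. The largest correlations were those of knockdown B with WT A (0.489) and knockdown A with WT B (0.359). With 3 libraries per group these values cannot show whether libraries shared a batch. On unfiltered FPKM Nfu1, Bola3, Pola1, Eif2s3x and Apoo were not called (0.0558, 0.0993, 0.0959, 0.110 and 0.0511), and with library totals Pola1 was not (0.0686). Of the 7 members with counts in both groups, Pdp1 had the fewest counts (30 to 65) and the widest interval (-0.38 to 0.77).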
